A study of Mus musculus with 46 samples.

Results

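Bone marrow-derived macrophages treated with ICI (fulvestrant) together with 27HC (27-hydroxycholesterol) were compared with macrophages treated with 27HC alone, over all genes. The comparison was defined by the labels only, and it takes in 10 of the 46 libraries of the series, 5 labelled ICI + 27HC and 5 labelled 27HC. Beside them stand 5 libraries treated with ICI alone and 6 treated with Vehicle, which give the difference made by ICI where no 27HC was added. All of these were polyadenylated RNA of mouse macrophages grown from bone marrow. Neither doses, exposure times, the strain, the sex nor the age of the mice is in the labels used here. The labels also do not say whether replicates came from separate mice or cultures, so the p-values measure the spread between these libraries, which may be technical. Each mean below is given with the SD over 5 libraries (6 for Vehicle), as counts per 1000000 counts (CPM) scaled by TMM, which is a level for comparing samples within a gene and not between genes. Each log2 fold change is ICI + 27HC over 27HC with its standard error, and a gene is said to have risen or fallen when its Benjamini-Hochberg adjusted p in edgeR's quasi-likelihood test was under 0.05.

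Fulvestrant is a steroidal antagonist that binds estrogen receptors and leads to their degradation, so it acts on the receptor protein first and not on its transcript. 27HC is an oxysterol made from cholesterol by CYP27A1. It is a ligand of the liver X receptors (LXR), which switch on cholesterol export in macrophages, and it is also known as a selective modulator of estrogen receptors. Oxysterols of this kind also hold back the processing of SREBP2, the transcription factor that drives cholesterol synthesis and uptake.

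The label of the cells was checked against 8 markers that define macrophages. All 8 were detected in every library of both groups, above 1 CPM on average. Their summed level was 10909.6 ± 277 CPM in ICI + 27HC libraries, against 15592 ± 503 CPM in 27HC libraries (exact two-sided permutation p = 0.00794, the smallest that 5 against 5 allows). Lyz2 made up the largest part of that sum (5350 CPM with ICI + 27HC against 7750 CPM with 27HC). Of the 8 markers 7 fell and 1, Cd68, rose. Total estimated counts ran from 19887160 to 24238684 in ICI + 27HC libraries and from 21218216 to 23755687 in 27HC libraries, and the difference of their means did not pass (exact permutation p = 0.921). The share of counts from mitochondrially encoded transcripts was 1.66 ± 0.118% in ICI + 27HC libraries, against 1.90 ± 0.0981% in 27HC libraries (exact permutation p = 0.0159).

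Adding ICI to 27HC changed 4722 of the 13838 genes tested, which is 34.1%. Of these 2319 rose, 16.8% of the genes tested, and 2403 fell, 17.4%. These 2 shares are the background for the gene lists below, and a count near them is no result about a list. Most changes were small: 107 genes rose at least 2-fold (0.773% of those tested) and 172 fell at least 2-fold (1.24%), and the median log2 fold change over all genes was 0.0068. The genes with the smallest p-values were Atf4, Sqstm1, Gdf15, Hspa9, Srxn1, Mthfd2, Trib3 and Slc3a2, which rose, and Clec4a1 and Ctsc, which fell. Of these, Hspa9 encodes the mitochondrial HSP70 chaperone (log2 0.81 ± 0.020, adjusted p = 3.71e-32), Clec4a1 a C-type lectin receptor of myeloid cells (log2 -1.45 ± 0.038, adjusted p = 2.98e-31) and Ctsc the lysosomal protease cathepsin C (log2 -1.17 ± 0.033, adjusted p = 1.95e-30). The others are described with their gene groups.

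**Figure D1:**
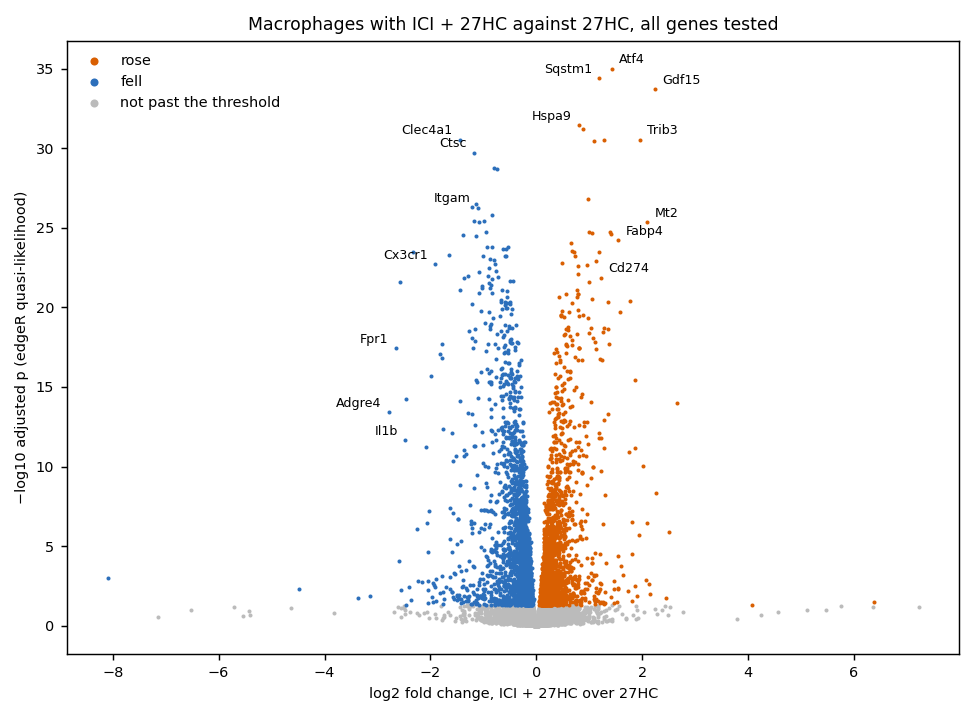
Each point is one of the 13838 genes tested, with the log2 fold change of ICI + 27HC over 27HC on the x axis and −log10 of the adjusted p on the y axis. Orange points rose (2319 genes), blue points fell (2403 genes) and grey points did not pass the threshold. Named genes are labelled, with Atf4 and Sqstm1 at the top right and Clec4a1 and Ctsc at the top left.

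Transcripts of the receptors that bind these compounds were lower, or too few to test. Esr1, the gene of estrogen receptor alpha (ENSMUSG00000019768, chromosome 10, 4611593 to 5005614, plus strand, with GENCODE M21 positions on GRCm38 here and below), had 2.28, 2.21, 2.45, 2.84 and 2.49 CPM in the ICI + 27HC libraries, against 3.61, 3.74, 4.17, 3.29 and 3.89 CPM in the 27HC libraries. All 5 ICI + 27HC libraries lay below all 5 27HC libraries, at a low level in both (log2 -0.61 ± 0.12, adjusted p = 5.06e-05). Esr2, the gene of estrogen receptor beta, had at most 6 counts in any of the 10 libraries and was not tested. Gper1, the gene of a membrane receptor proposed to bind estrogens, had at most 12 counts, and fell by 1.24 on the log2 scale with overlapping libraries (adjusted p = 0.0429; not called without ICI + 27HC replicates 1, 3 or 5 or without 27HC replicates 3, 4 or 5, each left out alone, with an adjusted p of up to 0.113). Nr1h3, which encodes LXR alpha, fell by 0.24 on the log2 scale although the groups overlapped (39.5 ± 3.1 CPM with ICI + 27HC against 46.7 ± 2.8 CPM with 27HC; adjusted p = 0.00256). Nr1h2, which encodes LXR beta, and Rxra, which encodes their partner retinoid X receptor alpha, fell by 0.12 and 0.29 (adjusted p = 0.0124 and 1.30e-11). Among 16 tested members of a list of estrogen-responsive genes, 5 rose and 5 fell, with a median of -0.0062. Bcl2, an inhibitor of cell death, Ctsd, the lysosomal protease cathepsin D, Xbp1, a transcription factor of secretory cells, and Myc and Ccnd1, which drive cell growth and division, rose (log2 0.51, 0.18, 0.16, 0.32 and 0.19). Igfbp4, a binding protein of insulin-like growth factors, fell most (134 ± 12.96 CPM with ICI + 27HC against 243 ± 12.4 CPM with 27HC; log2 -0.86 ± 0.047, adjusted p = 1.07e-19), and Rara (retinoic acid receptor alpha), Esr1, Cxcl12 and Vegfa made up the rest of those that fell (log2 -0.29, -0.61, -0.14 and -0.20, with overlapping libraries for Vegfa). Of 10 coregulators of nuclear receptors, 2 fell, the coactivator genes Ncoa3 (log2 -0.23 ± 0.058, adjusted p = 0.00149) and Ncoa2 (log2 -0.16 ± 0.061, adjusted p = 0.0361, libraries overlapping), and none rose, with a median of -0.039, or -0.097 without 27HC replicate 3. Ncoa2 was not called without ICI + 27HC replicates 3, 4 or 5 or without 27HC replicates 2, 4 or 5, each left out alone, with an adjusted p of up to 0.101, which left 1 of the 10. The 2 falls among 10 coregulators lie near the 17.4% of all genes tested that fell, and are no result about the group.

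Genes of the ATF4 stress response and of the amino acid supply it controls rose, with few exceptions. ATF4 is a transcription factor made in greater amounts when the kinases of the integrated stress response phosphorylate the initiation factor eIF2. With C/EBP partners it binds a composite element and switches on amino acid transporters, amino acid synthesis and genes such as Ddit3 and Trib3. Of the 26 tested members 24 rose and 1 fell, and the median log2 fold change was 0.98, against 0.0068 over all genes. Promoters of 4 members that rose are shown because they hold the element's letters, TGATGNAA on either strand, and those of Srxn1 and Mt2 because they hold the elements of the groups described next. They lie at chr2:152344011-152344310 (minus strand) for Trib3, chr2:119350992-119351291 (plus strand) for Chac1, chr6:7693160-7693459 (minus strand) for Asns, chr3:50443564-50443863 (minus strand) for Slc7a11, chr2:152105274-152105573 (plus strand) for Srxn1 and chr8:94172368-94172667 (plus strand) for Mt2. Each is the RefSeq sequence on GRCm38.p6 from 250 bases before to 50 bases after the annotated start, read 5′ to 3′ on the gene's strand, with the matches of the motif it is shown for in capitals.
Trib3: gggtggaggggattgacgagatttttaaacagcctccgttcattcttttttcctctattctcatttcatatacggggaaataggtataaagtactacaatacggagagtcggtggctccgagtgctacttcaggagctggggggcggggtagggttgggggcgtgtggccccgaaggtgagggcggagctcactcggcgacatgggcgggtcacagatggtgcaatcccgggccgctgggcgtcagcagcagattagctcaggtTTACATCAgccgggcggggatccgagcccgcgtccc
Chac1: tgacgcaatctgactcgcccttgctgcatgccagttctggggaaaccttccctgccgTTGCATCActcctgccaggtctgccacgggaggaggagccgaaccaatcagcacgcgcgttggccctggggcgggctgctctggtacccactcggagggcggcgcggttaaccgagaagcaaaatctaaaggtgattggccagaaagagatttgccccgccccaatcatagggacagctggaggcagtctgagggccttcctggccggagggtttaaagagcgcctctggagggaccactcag
Asns: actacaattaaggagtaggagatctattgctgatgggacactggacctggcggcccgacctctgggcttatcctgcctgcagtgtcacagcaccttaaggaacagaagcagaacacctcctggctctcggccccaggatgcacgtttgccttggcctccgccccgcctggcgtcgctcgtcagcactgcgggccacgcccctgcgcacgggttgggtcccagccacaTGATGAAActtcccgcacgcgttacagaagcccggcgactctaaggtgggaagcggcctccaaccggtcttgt
Slc7a11: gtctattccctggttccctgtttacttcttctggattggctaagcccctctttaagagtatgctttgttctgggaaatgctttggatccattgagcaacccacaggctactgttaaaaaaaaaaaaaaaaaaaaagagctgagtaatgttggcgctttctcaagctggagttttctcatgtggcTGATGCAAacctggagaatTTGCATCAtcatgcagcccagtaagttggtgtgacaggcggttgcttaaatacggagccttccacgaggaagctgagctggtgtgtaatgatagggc
Srxn1: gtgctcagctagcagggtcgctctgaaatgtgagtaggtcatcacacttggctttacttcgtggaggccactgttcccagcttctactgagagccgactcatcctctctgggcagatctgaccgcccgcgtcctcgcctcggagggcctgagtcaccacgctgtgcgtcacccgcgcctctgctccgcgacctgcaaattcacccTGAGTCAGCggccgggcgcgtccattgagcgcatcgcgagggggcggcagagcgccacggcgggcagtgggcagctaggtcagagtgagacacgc
Mt2: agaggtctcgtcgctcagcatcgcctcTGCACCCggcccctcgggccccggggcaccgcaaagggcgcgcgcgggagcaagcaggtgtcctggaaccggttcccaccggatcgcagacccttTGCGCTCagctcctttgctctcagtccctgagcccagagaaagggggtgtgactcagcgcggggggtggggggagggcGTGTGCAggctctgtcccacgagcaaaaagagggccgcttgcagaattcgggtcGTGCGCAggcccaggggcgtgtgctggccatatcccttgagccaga
Positions are those of the first base of a match, counted from 0 at the annotated start and negative before it. The capitals mark TGATGNAA in the first 4 promoters, at 14 in Trib3 (within the first transcribed bases), -193 in Chac1, -23 in Asns, and -66 and -47 in Slc7a11. In Srxn1 they mark an antioxidant response element core, TGANTCAGC, at -45, and in Mt2 the metal response element core, TGCACNC or TGCGCNC, at -223, -128, -50 and 4. Matches of the other motifs were left in lower case, with TGANTCAGC at -79 in Mt2 and the metal element at -49 in Asns and -19 in Srxn1. TGATGNAA was in 4.06% of the 27025 promoters in the table and in 6 of the 20 members of the ATF4 list with a promoter there. TGANTCAGC was in 1.15% of promoters and in 3 of 13 NRF2 targets, and the metal element in 25.6% and in 3 of 5 members of the metallothionein list. The pattern TGANTCAGC was set after another had been tried, so its share among NRF2 targets is a description and no test. Matches of different motifs overlapped in 0 of the 27025 promoters. A match of letters is a description of the sequence and not a measured binding site.

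Atf4 itself (ENSMUSG00000042406, chromosome 15, 80255184 to 80257541, plus strand) had 402, 407, 418, 406 and 404 CPM in the ICI + 27HC libraries, against 152, 151, 152, 153 and 149 CPM in the 27HC libraries. Every ICI + 27HC library held more than every 27HC library, and the rise had the smallest p of all genes (log2 1.43 ± 0.028, adjusted p = 1.00e-35). Trib3, a pseudokinase that feeds back on ATF4 and AKT, had 62.2, 62.6, 60.3, 60.2 and 62.1 CPM in the ICI + 27HC libraries, against 15.8, 15.8, 16.7, 15.2 and 15.8 CPM in the 27HC libraries (log2 1.96 ± 0.052, adjusted p = 2.98e-31). The libraries of each group lay close together and the groups were far apart. Gdf15, a secreted stress cytokine outside the list (ENSMUSG00000038508, chromosome 8, 70629393 to 70632456, minus strand), had 72.4, 68.8, 72.1, 67.1 and 70.4 CPM in the ICI + 27HC libraries, against 14.4, 15.5, 14.8, 14.2 and 15.6 CPM in the 27HC libraries (log2 2.24 ± 0.049, adjusted p = 1.99e-34).

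Stress regulators of the list rose along with them. Ddit3, the gene of the transcription factor CHOP, averaged 47.2 ± 1.99 CPM with ICI + 27HC against 17.9 ± 1.1 CPM with 27HC (log2 1.40 ± 0.053, adjusted p = 2.40e-25), and Chac1, which breaks down glutathione, averaged 13.5 ± 0.65 CPM with ICI + 27HC against 3.95 ± 0.56 CPM with 27HC (log2 1.77 ± 0.089, adjusted p = 4.01e-21). Atf3, Sesn2 and Nupr1, all stress-induced regulators, rose by 0.97, 0.63 and 0.59 on the log2 scale. Eif4ebp1, which restrains cap-dependent translation, rose by 0.59. The 1 member that fell was Ddit4, an inhibitor of mTORC1 (15.1 ± 0.48 CPM with ICI + 27HC against 20.05 ± 1.03 CPM with 27HC; log2 -0.41 ± 0.055, adjusted p = 5.42e-08). Cebpb, a partner of ATF4, did not pass the threshold (log2 0.15 ± 0.13, adjusted p = 0.406).

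Genes of amino acid synthesis and import formed the rest of the group. Asns, the asparagine synthetase, had 188, 175, 179.5, 173 and 169 CPM in the ICI + 27HC libraries, against 67.9, 69.3, 71.3, 65.2 and 61.7 CPM in the 27HC libraries (log2 1.40 ± 0.052, adjusted p = 1.81e-25), with no library of one group inside the range of the other. Phgdh, Psat1 and Psph, the enzymes that make serine in turn, rose by 1.03, 0.77 and 0.50, and Psph had overlapping libraries. Mthfd2 and Shmt2 of mitochondrial one-carbon metabolism rose by 1.29 and 0.43 (adjusted p = 2.98e-31 and 4.30e-14). Slc7a11, the cystine importer, averaged 112 ± 4.5 CPM with ICI + 27HC against 43.3 ± 3.4 CPM with 27HC (log2 1.37 ± 0.081, adjusted p = 2.01e-18). Its heavy chain Slc3a2, shared with other transporters, averaged 1291 ± 36.2 CPM with ICI + 27HC against 603 ± 22.3 CPM with 27HC (log2 1.10 ± 0.029, adjusted p = 3.36e-31). Slc7a5 and Slc7a1, importers of large neutral and of cationic amino acids, rose by 0.99 and 1.04.

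**Figure D2:**
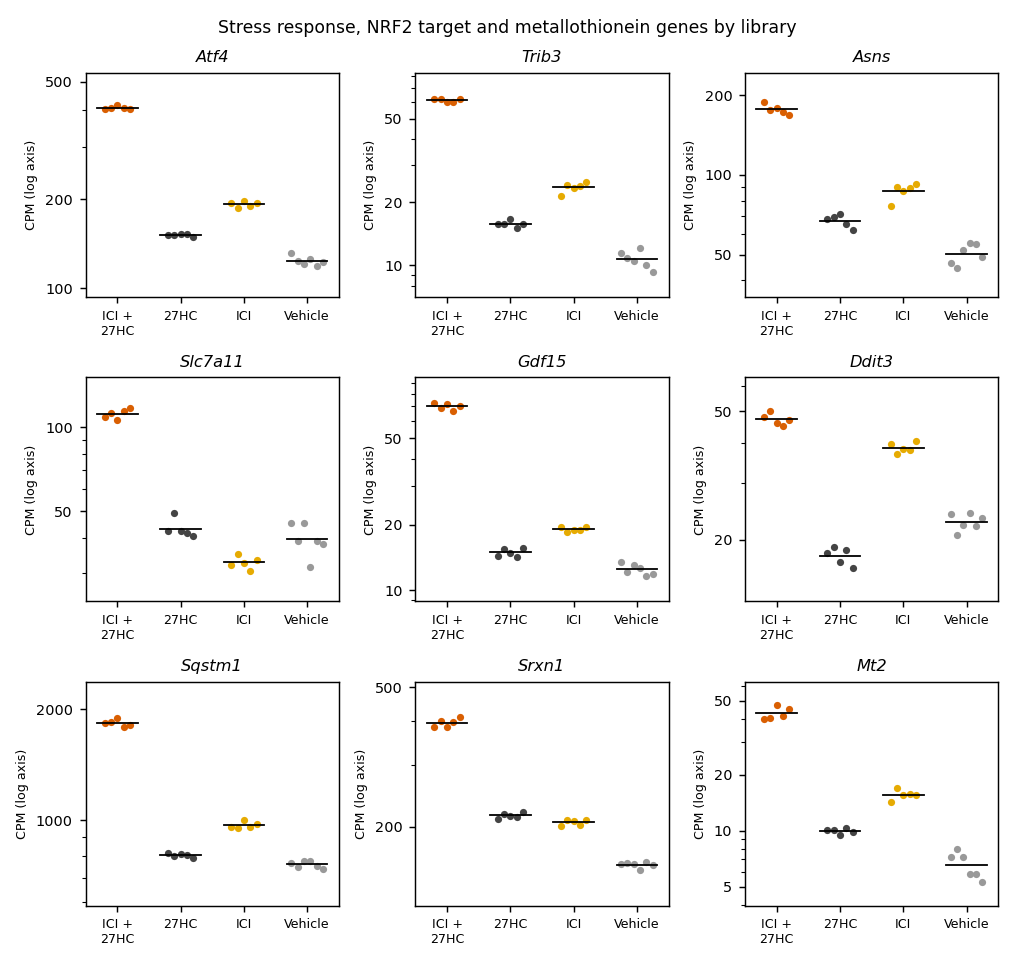
Levels in CPM on log axes of 9 genes, one panel each, with 1 point per library and a horizontal bar at the group mean. Groups run from left to right as ICI + 27HC, 27HC, ICI and Vehicle. In each panel the 5 ICI + 27HC libraries lie above all 5 27HC libraries, as they do for 11.1% of all genes tested.

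The stress response to unfolded proteins in the endoplasmic reticulum shares ATF4 and Ddit3 but has its own chaperone genes, and these moved little. Of 21 tested members 12 rose and 5 fell, with a median of 0.14. Hspa5, the chaperone BiP, averaged 1242 ± 21.96 CPM with ICI + 27HC against 1079 ± 28.8 CPM with 27HC (log2 0.20 ± 0.022, adjusted p = 4.03e-10), and Hyou1 and Dnajb9 rose by 0.21 and 0.24. The largest rise in the list was that of Ern1, the sensor IRE1 alpha (log2 0.50 ± 0.049, adjusted p = 9.26e-12). Those that fell were Calr, Pdia4, Dnajc3, Sel1l and Pdia3 (log2 -0.12, -0.079, -0.12, -0.13 and -0.054), of which Pdia4 and Pdia3 had overlapping libraries and Pdia3 was not called without ICI + 27HC replicates 1, 2 or 4 or without 27HC replicate 3, each left out alone, with an adjusted p of up to 0.0775. Proteasome subunits rose in 10 of 21 cases and fell in none, all by little (median 0.069), with Psmb5 and Psmb6 at log2 0.27 ± 0.042 and log2 0.27 ± 0.042. Only 6 rose when 27HC replicate 5 was left out.

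Nearly all measured targets of NRF2, the transcription factor that answers oxidants and electrophiles, rose. Of 16 tested members 15 rose and none fell, with a median of 0.51. Sqstm1, the autophagy receptor p62, which also releases NRF2 from its inhibitor KEAP1, had 1838, 1848, 1889, 1789 and 1816 CPM in the ICI + 27HC libraries, against 815, 801, 809.7, 808 and 789.5 CPM in the 27HC libraries. No library of one group came near the other (log2 1.19 ± 0.025, adjusted p = 4.21e-35). Srxn1, the sulfiredoxin whose promoter is shown above, averaged 396 ± 10.5 CPM with ICI + 27HC against 215 ± 4.1 CPM with 27HC (log2 0.88 ± 0.022, adjusted p = 6.49e-32). Txnrd1 and Prdx1 of the thioredoxin system rose by 0.66 and 0.67, Gclm and Gclc of glutathione synthesis by 0.55 and 0.31, and Hmox1, heme oxygenase 1, by 0.47. Cat, the catalase, rose by 0.44. Slc7a11 counts in this list as well as in the ATF4 list. G6pdx was the member that did not pass (log2 0.049 ± 0.025).

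Metallothioneins are small proteins that bind zinc and copper, and the factor MTF1 switches them on when free zinc rises. Of 5 tested members of the metallothionein and zinc export list, 3 rose and 1 fell, with a median of 0.80, or 0.026 with no filter on low counts, which tests more members. Mt2 had 39.997, 40.3, 47.2, 41.1 and 44.8 CPM in the ICI + 27HC libraries, against 10.1, 10.1, 9.51, 10.4 and 9.86 CPM in the 27HC libraries, a fold change of 4.27 (log2 2.09 ± 0.076, adjusted p = 4.60e-26). The ICI + 27HC libraries all lay above the 27HC libraries. Mt1, its neighbour on chromosome 8, averaged 114 ± 4.6 CPM with ICI + 27HC against 56.8 ± 2.8 CPM with 27HC (log2 1.00 ± 0.046, adjusted p = 2.72e-22), and the estimates of this related pair depend on how reads shared by both were split. Slc30a1, the zinc exporter of the plasma membrane, averaged 38.5 ± 1.05 CPM with ICI + 27HC against 22.2 ± 0.73 CPM with 27HC (log2 0.80 ± 0.039, adjusted p = 1.42e-21). Slc39a10, a zinc importer, fell by 0.50 (adjusted p = 8.41e-13), and Mtf1 itself was at log2 0.025 ± 0.089 (adjusted p = 0.872).

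Genes of macrophage identity fell. Of 17 tested members 16 fell and 1 rose, with a median of -0.56. In bulk RNA, fewer cells of a type and less RNA per cell cannot be told apart. Summed stromal markers were lower too, at 3871 ± 192 CPM in ICI + 27HC libraries, against 4512 ± 189.9 CPM in 27HC libraries, and their part in this result was not tested. Itgam, the integrin chain CD11b, had 333, 325, 311, 326 and 313 CPM in the ICI + 27HC libraries, against 684, 744, 653, 686 and 681 CPM in the 27HC libraries, and the groups did not overlap (log2 -1.10 ± 0.038, adjusted p = 5.64e-27). Csf1r, the receptor of the growth factor M-CSF on which these macrophages depend, averaged 1566 ± 25.2 CPM with ICI + 27HC against 2278 ± 65.7 CPM with 27HC (log2 -0.54 ± 0.022, adjusted p = 1.69e-24), and Adgre1, which encodes F4/80, 1298 ± 18.8 CPM with ICI + 27HC against 2037 ± 42.7 CPM with 27HC (log2 -0.65 ± 0.031, adjusted p = 8.42e-22). Maf, a transcription factor of mature macrophages, fell by 1.00, while Spi1, the gene of the lineage factor PU.1, fell by 0.13. Cd14, a co-receptor of bacterial lipopolysaccharide, fell by 0.92 and Lyz2, the lysozyme gene, by 0.53. Cd68, a lysosomal membrane protein of phagocytes, was the member that rose, by 0.14 with overlapping libraries (adjusted p = 5.61e-06).

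Receptors for chemokines and other chemoattractants fell in 9 of 11 tested cases, with a median of -0.53, or -0.88 with a stricter filter on low counts and -0.73 with none. Cx3cr1, the fractalkine receptor (ENSMUSG00000052336, chromosome 9, 119901616 to 120069879, minus strand), had 8.50, 7.97, 9.49, 10.3 and 8.89 CPM in the ICI + 27HC libraries, against 37.1, 29.6, 33.4, 33.7 and 36.5 CPM in the 27HC libraries. Every ICI + 27HC library lay far below every 27HC library (log2 -1.92 ± 0.083, adjusted p = 2.03e-23). Fpr1, a receptor of bacterial formyl peptides, had 2.48, 2.34, 1.86, 2.39 and 2.77 CPM in the ICI + 27HC libraries, against 14.99, 18.7, 14.5, 15.6 and 11.6 CPM in the 27HC libraries, again without overlap (log2 -2.66 ± 0.16, adjusted p = 3.75e-18). Its close relative Fpr2 fell by 1.76 (adjusted p = 4.16e-13), and reads of these paralogs may be shared. C5ar1, the receptor of complement C5a, averaged 676 ± 27.7 CPM with ICI + 27HC against 975 ± 33.9 CPM with 27HC (log2 -0.53 ± 0.034, adjusted p = 3.06e-17). Ccr2, the receptor of the monocyte attractant CCL2, fell by 1.50 with overlapping libraries, at low levels (0.417 ± 0.22 CPM with ICI + 27HC against 1.19 ± 0.39 CPM with 27HC; adjusted p = 7.73e-06). Ccrl2, an atypical chemerin receptor, was the member that rose (14.8 ± 2.1 CPM with ICI + 27HC against 8.39 ± 0.73 CPM with 27HC; log2 0.82 ± 0.10, adjusted p = 5.29e-09).

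**Figure D3:**
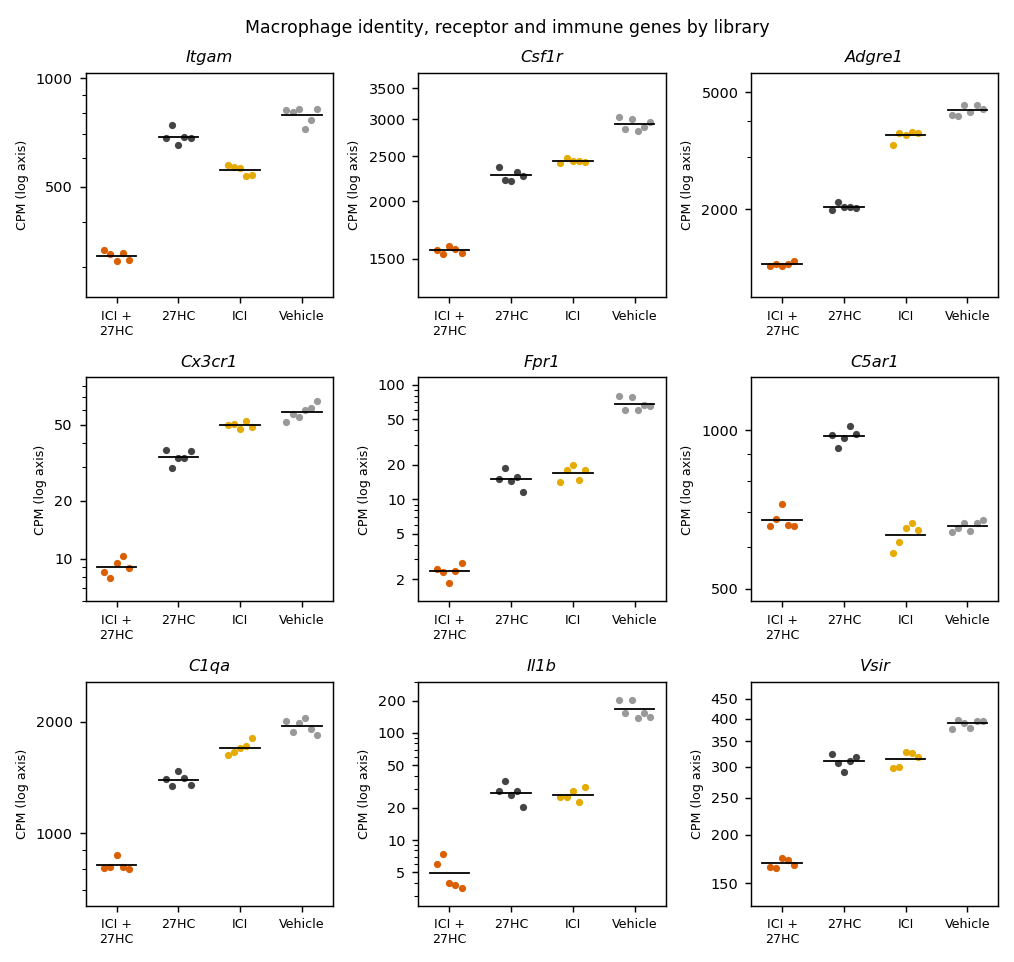
Levels in CPM on log axes of 9 genes, one panel each, with 1 point per library and a horizontal bar at the group mean. Groups run from left to right as ICI + 27HC, 27HC, ICI and Vehicle. In each panel the 5 ICI + 27HC libraries lie below all 5 27HC libraries, as they do for 12.2% of all genes tested.

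Genes of complement and of the uptake of dying cells fell in 10 of 13 tested cases and rose in none, with a median of -0.30. Those that fell include the complement genes C3 and C3ar1. The 3 chains of complement C1q, a bridge between phagocytes and dying cells, all fell. C1qa had 807, 811, 871, 810.4 and 801 CPM in the ICI + 27HC libraries, against 1404, 1342, 1473, 1408 and 1349 CPM in the 27HC libraries, without overlap (log2 -0.77 ± 0.034, adjusted p = 5.06e-23), and C1qb and C1qc fell by 0.50 and 0.58. The uptake receptors Mertk and Stab1 fell by 0.26 and 0.52, and Gas6 and Pros1, which bridge MERTK to dying cells, by 0.23 and 0.43. Tgm2, a transglutaminase, had the smallest p in the list (148 ± 3.3 CPM with ICI + 27HC against 266 ± 8.3 CPM with 27HC; log2 -0.85 ± 0.030, adjusted p = 1.55e-26). Of 12 tested genes of alternative activation, 1 rose and 5 fell, with a median of -0.52. Klf4, a transcription factor, rose (log2 0.58 ± 0.068, adjusted p = 1.76e-09), while Mrc1, the mannose receptor, Il10, Stab1, Socs3 and Cd163 fell (log2 -0.53, -1.63, -0.52, -0.52 and -1.27). Leaving out ICI + 27HC replicate 2 or 27HC replicate 2 raised the number that rose to 2.

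Inflammatory cytokine genes split. Of 23 tested members 6 rose and 7 fell, with a median of -0.050. Il1b, the gene of interleukin-1 beta (ENSMUSG00000027398, chromosome 2, 129364570 to 129371139, minus strand), had 5.98, 7.45, 3.996, 3.84 and 3.59 CPM in the ICI + 27HC libraries, against 28.5, 35.5, 26.1, 28.6 and 20.2 CPM in the 27HC libraries (log2 -2.47 ± 0.22, adjusted p = 2.24e-12). No ICI + 27HC library came near the level of the 27HC libraries. Nlrp3, the sensor of an inflammasome, Nfkbiz, a nuclear regulator of NF-kB, and Saa3, an acute-phase protein, fell as well (log2 -0.53, -0.65 and -1.26). Tnfaip3, an inhibitor of NF-kB signalling, averaged 96.1 ± 2.1 CPM with ICI + 27HC against 54.8 ± 1.6 CPM with 27HC (log2 0.81 ± 0.049, adjusted p = 3.34e-18). The chemokine genes Ccl3, Ccl4 and Ccl2 rose by 0.80, 0.63 and 0.58, and Tnf by 0.45. Ptgs2, which encodes cyclooxygenase 2, rose by 0.18 with overlapping libraries (adjusted p = 0.0363; not called without ICI + 27HC replicates 1, 2 or 5 or without 27HC replicates 1, 3, 4 or 5, each left out alone, with an adjusted p of up to 0.156).

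Interferon-stimulated genes fell in 11 of 28 tested cases and rose in 2, a median of -0.16, or -0.082 without 27HC replicate 2. Irf7, which switches on type I interferon genes, had 187, 189, 167, 172 and 166 CPM in the ICI + 27HC libraries, against 256, 311, 275, 279.7 and 245 CPM in the 27HC libraries, the groups lying apart (log2 -0.63 ± 0.045, adjusted p = 8.17e-16). Rtp4, Oasl2 and Oas3 fell by 0.43, 0.38 and 0.31. Rsad2, the antiviral protein viperin, rose by 0.54 (adjusted p = 1.43e-10) and Usp18, which trims ISG15, by 0.22 with overlapping libraries (adjusted p = 0.00622).

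Genes of antigen presentation had medians near 0, at -0.024 for class II, which was above 0 in 7 of 16 alternative settings (up to 0.050 without ICI + 27HC replicate 4), and -0.026 for class I. The counts of class II genes lie near the background of 16.8% of all genes rising and 17.4% falling, and are no result about the group. Of 12 tested MHC class II and co-stimulation genes 3 rose, H2-Ab1, H2-Aa and H2-Eb1 (log2 0.41, 0.48 and 0.30), and 2 fell, H2-DMa and H2-DMb2 (-0.25 and -0.50). H2-DMb2 had overlapping libraries and was not called without ICI + 27HC replicates 2, 3, 4 or 5 or without 27HC replicates 1, 2, 3 or 4, each left out alone, with an adjusted p of up to 0.143, which left 1 that fell. Of 17 MHC class I and peptide loading genes 4 rose and 6 fell. H2-Q7 and H2-Q4, which belong to a family of near-identical genes whose reads may be split between copies, rose by 1.11 and 0.58, and H2-D1 and H2-M3 by 0.15 and 0.18. Tapbp, Calr, B2m and H2-T22 led those that fell (log2 -0.23, -0.12, -0.11 and -0.17, with overlapping libraries for B2m).

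Among 14 tested myeloid genes known to hold back T cells, 3 rose and 7 fell, and the median was -0.15, or -0.40 with no filter on low counts. Cd274, the gene of the checkpoint ligand PD-L1, had 99.8, 97.9, 87.96, 95.1 and 91.2 CPM in the ICI + 27HC libraries, against 40.4, 49.1, 35.96, 40.2 and 37.96 CPM in the 27HC libraries (log2 1.21 ± 0.055, adjusted p = 1.35e-22). All ICI + 27HC libraries lay above all 27HC libraries. Pvr, a ligand of TIGIT and CD226, rose by 0.52 and Ptgs2, named above, also counts here. Vsir, the checkpoint gene VISTA, averaged 169 ± 4.6 CPM with ICI + 27HC against 310.0 ± 12.1 CPM with 27HC (log2 -0.88 ± 0.042, adjusted p = 5.73e-22), and Entpd1, the ectonucleotidase CD39, 66.4 ± 2.8 CPM with ICI + 27HC against 104 ± 7.7 CPM with 27HC (log2 -0.65 ± 0.050, adjusted p = 6.44e-15). Il10 and Siglec1 fell by 1.63 and 0.40.

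Genes of DNA replication and mitosis fell in 18 of 28 tested cases and rose in 1, with a median of -0.38. Mcm5, a subunit of the replicative helicase, had 25.9, 27.2, 32.2, 29.1 and 29.7 CPM in the ICI + 27HC libraries, against 44.3, 37.5, 42.7, 41.1 and 46.1 CPM in the 27HC libraries, the groups lying apart (log2 -0.56 ± 0.057, adjusted p = 4.39e-11). Mcm7, Mcm4 and Mcm3 of the same complex fell by 0.58, 0.37 and 0.48, Rrm1, which makes deoxynucleotides, by 0.43 and E2f1 by 0.36. Pcna, the sliding clamp of the polymerase, was the member that rose (368 ± 5.6 CPM with ICI + 27HC against 294 ± 13.02 CPM with 27HC; log2 0.33 ± 0.039, adjusted p = 3.85e-09). Of 11 D cyclins, CDK inhibitors and related genes (median 0.12) 4 rose, Mdm2, Cdkn1a, Ccnd1 and Cdk4 (log2 0.44, 0.12, 0.19 and 0.16), and 4 fell, Trp53inp1, Ccnd3, Cdkn1b and Cdkn2c (-0.27, -0.38, -0.30 and -0.28; Cdkn2c was not called without 27HC replicates 4 or 5, each left out alone, with an adjusted p of up to 0.0543).

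LXR targets fell in 11 and rose in 3 of 21 tested cases, with a median of -0.24. Abca1, the exporter of cholesterol to apolipoprotein A-I, had 729, 707, 653, 730.1 and 715 CPM in the ICI + 27HC libraries, against 979, 1046, 904, 955 and 1057 CPM in the 27HC libraries. The groups did not overlap, yet every ICI + 27HC library lay above the 394 CPM that Vehicle libraries averaged (log2 -0.48 ± 0.065, adjusted p = 6.14e-08). Abcg1, the exporter of cholesterol to HDL, did not pass, at 330.3 ± 19.2 CPM with ICI + 27HC against 342 ± 15.7 CPM with 27HC (log2 -0.052 ± 0.065, adjusted p = 0.595), with overlapping libraries. Its level was 109.7 ± 7.1 CPM with ICI alone and 41.2 ± 7.3 CPM with Vehicle. Arl4c, Pltp and Lpcat3 fell by 0.38, 0.41 and 0.33. Lpl, lipoprotein lipase, Mylip, a ubiquitin ligase, and Npc1, a lysosomal cholesterol transporter, rose by 0.32, 0.16 and 0.085. Srebf1, the master gene of fatty acid synthesis, did not pass the threshold (log2 -0.078 ± 0.051, adjusted p = 0.249). Of 15 genes of fatty acid synthesis (median -0.035) 4 rose, Me1, Acss2, Fasn and Elovl7 (log2 0.35, 0.61, 0.38 and 0.71), and 4 fell, Fads1, Scd2, Acly and Fads2 (-0.28, -0.28, -0.18 and -0.33). Acss2, Elovl7 and Fads2 had overlapping libraries. Elovl7 was not called without ICI + 27HC replicates 3, 4 or 5 or without 27HC replicates 1, 2, 3 or 4, each left out alone, with an adjusted p of up to 0.0991, and Fads2 was not called without ICI + 27HC replicates 1, 3, 4 or 5 or without 27HC replicates 4 or 5, each left out alone, with an adjusted p of up to 0.152.

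Genes of cholesterol synthesis and uptake rose in 7 and fell in 4 of 25 tested cases, a median of 0.065. The 4 falls lie near the 17.4% of all genes tested that fell, and are no result about the group. Sqle, the squalene epoxidase, an enzyme known to limit the pathway's rate, had 15.9, 15.4, 16.1, 16.1 and 16.7 CPM in the ICI + 27HC libraries, against 12.8, 12.3, 13.7, 12.2 and 11.8 CPM in the 27HC libraries (log2 0.35 ± 0.056, adjusted p = 1.74e-06). The ICI + 27HC libraries all lay above the 27HC libraries. It stood at 19.5 ± 1.5 CPM with ICI alone and at 48.5 ± 1.98 CPM with Vehicle, where the log2 fold change of ICI over Vehicle was -1.31. Hmgcs1, with overlapping libraries, rose by 0.14. Idi1 and Insig1 did not pass (log2 -0.067 ± 0.063 and log2 0.068 ± 0.039). Stard4, Tm7sf2, Ebp and Acat2 fell (log2 -0.56, -0.57, -0.22 and -0.25, with overlapping libraries for Acat2). Of 14 genes of sterol storage and transport (median 0.014) 6 rose and 3 fell, or 5 fell when 27HC replicate 1 was left out. The 3 falls among 14 are likewise near the share over all genes. Soat1, which esterifies cholesterol, and Lipa, which hydrolyses the esters in lysosomes, rose by 0.36 and 0.27, and Osbpl8 by 0.30, while Stard4, Npc2 and Cyp27a1, the gene of the enzyme that makes 27HC, fell by 0.56, 0.17 and 0.39.

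Targets of PPAR receptors and lipid droplet genes rose in 8 of 16 tested cases and fell in 4, with a median of 0.22. Fabp4, a fatty acid carrier of macrophages and fat cells, had 57.9, 61.9, 61.03, 58.3 and 58.1 CPM in the ICI + 27HC libraries, against 19.8, 21.6, 22.7, 20.9 and 16.8 CPM in the 27HC libraries (log2 1.54 ± 0.060, adjusted p = 6.28e-25), without overlap. Fabp5, Plin3 and Plin2, the last 2 of them coats of lipid droplets, rose by 0.55, 0.44 and 0.38. Among those that fell were Ucp2, Cpt1a and Cd36 (log2 -0.72, -0.17 and -0.099). Of 13 genes of lipid-associated macrophages (median 0.19) 9 rose, led by Gpnmb, Fabp5, Lgals3 and Cd9 (0.48, 0.55, 0.56 and 0.42), and 2 fell, Ctsl and Apoe (-0.32 and -0.24). Lysosomal genes rose in 13 and fell in 8 of 29 cases, with a median of 0.074. Atp6v0d2, a proton pump subunit of macrophages and osteoclasts, averaged 97.7 ± 2.6 CPM with ICI + 27HC against 50.1 ± 0.78 CPM with 27HC (log2 0.96 ± 0.042, adjusted p = 2.15e-23), while Scarb2 and Gusb fell by 0.35 and 0.32.

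Glycolysis and hypoxia genes fell in 13 and rose in 5 of 23 tested cases (median -0.14). Pkm, P4ha1, Ldha and Bnip3 fell by 0.28, 0.25, 0.22 and 0.23. Those that rose were Pfkp, Pfkfb3, Pgam1, Adm and Slc2a1 (log2 0.53, 0.46, 0.14, 0.45 and 0.19). Of 22 immediate early genes and MAP kinase phosphatases (median 0.055, or 0.0032 without ICI + 27HC replicate 3) 9 rose, led by Atf3, Dusp4, Dusp1 and Jun (0.97, 1.03, 0.39 and 0.27), and 4 fell, Fos, Nr4a1, Zfp36 and Ier3 (-0.52, -1.21, -0.37 and -0.17; Ier3 was not called without ICI + 27HC replicates 1, 2 or 3 or without 27HC replicates 2, 4 or 5, each left out alone, with an adjusted p of up to 0.0883). Matrix proteases and plasminogen genes rose in 5 and fell in 6 of 15 tested cases, with a median of -0.039. Mmp12, the macrophage elastase, averaged 1222 ± 19.4 CPM with ICI + 27HC against 612 ± 18.8 CPM with 27HC (log2 1.00 ± 0.038, adjusted p = 1.95e-25), and Plaur, Plau and Serpinb2 rose by 0.72, 0.40 and 0.52. Mmp8, Mmp9, Mmp13 and Plat fell by 0.73, 0.62, 0.36 and 0.51.

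Few nuclear genes of respiratory chain subunits and few ribosomal protein genes changed, while 7 of 13 mitochondrially encoded transcripts, which include subunits of the same chain, fell. Of 20 nuclear genes of respiratory chain subunits (median -0.035) none rose and 3 fell, Atp5a1, Sdhc and Ndufb8 (log2 -0.12, -0.12 and -0.12, with overlapping libraries for the last 2). Sdhc was not called without ICI + 27HC replicates 1, 2 or 5 or without 27HC replicate 3, each left out alone, with an adjusted p of up to 0.127, and Ndufb8 was not called without ICI + 27HC replicates 1, 2 or 5 or without 27HC replicate 3, each left out alone, with an adjusted p of up to 0.0986. Of 22 cytosolic ribosomal protein genes (median 0.014) 1 rose, Rpl4 (0.18), and 2 fell, Rpl3 and Rpl37 (-0.099 and -0.11, overlapping). Rpl37 was not called without ICI + 27HC replicates 1, 2 or 5 or without 27HC replicates 3, 4 or 5, each left out alone, with an adjusted p of up to 0.126, and 3 rose without 27HC replicate 3. The mitochondrially encoded transcripts had a median of -0.21, with mt-Cytb and mt-Co3 at log2 -0.33 ± 0.067 and log2 -0.39 ± 0.084, and 3 of the 13 fell without ICI + 27HC replicate 1 or 2 or 27HC replicate 4 or 5, and 4 without ICI + 27HC replicate 3.

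**Figure D4:**
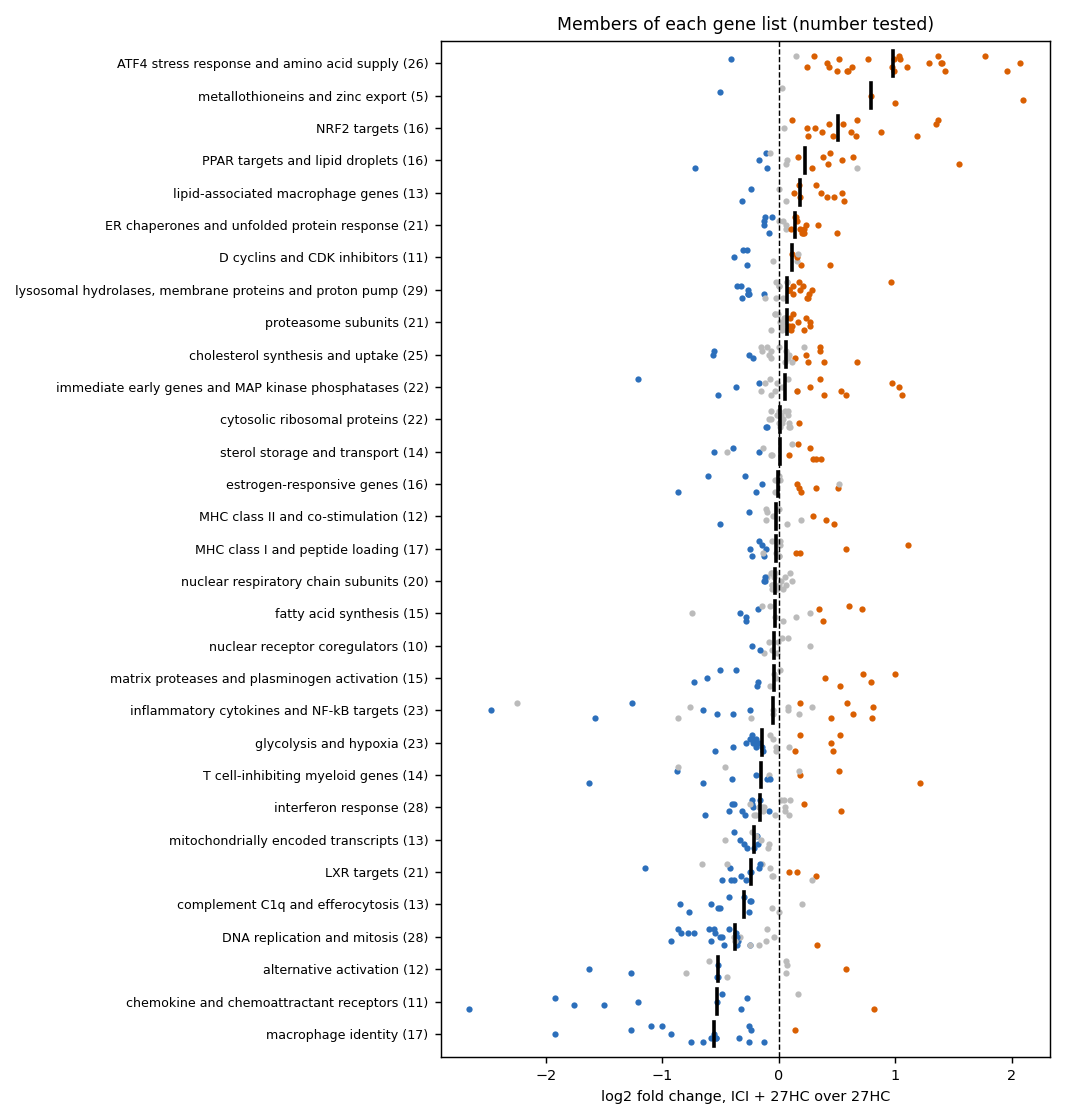
Each row is a gene list and each point 1 of its tested members, placed by the log2 fold change of ICI + 27HC over 27HC. Orange points rose, blue points fell and grey points did not pass the threshold; black bars mark each list's median and the dashed line the median of all genes (0.0068). The ATF4 and NRF2 lists lie mostly to the right and macrophage identity and DNA replication to the left.

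Outside the lists, the largest differences among genes with at least 1 CPM on average and no overlap were chosen by size. Apart from Gdf15, Mt2, Trib3 and Chac1, the 12 highest held Cox6a2, the heart and muscle isoform of a cytochrome oxidase subunit (2.23 ± 0.31 CPM with ICI + 27HC against 0.347 ± 0.16 CPM with 27HC; log2 2.65 ± 0.21, adjusted p = 1.07e-14), and Gem, a small GTPase that restrains calcium channels (1.99 ± 0.39 CPM with ICI + 27HC against 0.412 ± 0.19 CPM with 27HC; log2 2.27 ± 0.28, adjusted p = 4.67e-09). They also held Aqp9, a glycerol and water channel, Cdkn1c, a CDK inhibitor, Lat, an adaptor of T cell receptor signalling, Dio2, which activates thyroid hormone, and Soat2, which esterifies cholesterol in liver and intestine (log2 2.02, 1.87, 1.80, 1.80 and 1.75). The lowest was Adgre4, an adhesion receptor of the F4/80 family (0.437 ± 0.28 CPM with ICI + 27HC against 3.12 ± 0.39 CPM with 27HC; log2 -2.79 ± 0.22, adjusted p = 4.03e-14). Apart from Fpr1, Il1b and Cx3cr1 the rest were Ms4a4a, a membrane protein of macrophages, Ppbp, a platelet chemokine, F13a1, a chain of coagulation factor XIII, Phactr1, a regulator of actin, Slco2b1 and Slc13a3, transporters of organic anions and of dicarboxylates, P2ry13, an ADP receptor, and Cytip, a partner of cytohesin (log2 -2.58, -2.46, -2.33, -2.24, -2.08, -1.82, -1.79 and -1.78).

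Markers of other cells were followed as summed CPM. Stromal markers, whose sums are given with macrophage identity, fell in 6 of 9 tested cases, among them Col3a1 (log2 -0.76 ± 0.080, adjusted p = 1.31e-10) and Col1a1 (log2 -0.33 ± 0.078, adjusted p = 6.53e-04). Osteoclast markers summed to 229 ± 3.3 CPM in ICI + 27HC libraries, against 212 ± 4.6 CPM in 27HC libraries, where Atp6v0d2 and Ctsk rose and Mmp9 and Dcstamp fell (log2 0.55 for Ctsk and -1.21 for Dcstamp). Neutrophil markers summed to 43.6 ± 2.3 CPM in ICI + 27HC libraries, against 53.6 ± 3.7 CPM in 27HC libraries and lymphocyte markers to 8.34 ± 0.63 CPM in ICI + 27HC libraries, against 12.7 ± 1.6 CPM in 27HC libraries. Dendritic cell markers summed to 22.2 ± 1.3 CPM in ICI + 27HC libraries, against 18.8 ± 0.56 CPM in 27HC libraries. Single genes carry these sums: Csf3r (31.4 CPM with ICI + 27HC against 34.2 CPM with 27HC) and Mmp8 (10.7 CPM with ICI + 27HC against 17.8 CPM with 27HC) most of the neutrophil sum, Cd4 (5.13 CPM with ICI + 27HC against 7.92 CPM with 27HC) most of the lymphocyte sum, and Itgax (19.8 CPM with ICI + 27HC against 16.7 CPM with 27HC) most of the dendritic cell sum. For each of these 5 lists, stromal included, the groups did not overlap (exact permutation p = 0.00794). Erythroid markers summed to 0.487 ± 0.094 CPM in ICI + 27HC libraries, against 0.919 ± 0.26 CPM in 27HC libraries (exact permutation p = 0.0159) and mast cell and basophil markers to 7.88 ± 0.72 CPM in ICI + 27HC libraries, against 9.19 ± 0.88 CPM in 27HC libraries (exact permutation p = 0.0476). Ly6g, Retnlg, Cd209a, Hba-a2, Prss34 and Ms4a2, each a defining gene of one of these cells, were at 0 in all 10 libraries. Of the lists, 9 of 12 neutrophil, 9 of 11 lymphocyte, 8 of 10 dendritic cell and 2 of 10 stromal markers averaged below 1 CPM in both groups. The part these cells had in the falls of macrophage identity, chemoattractant receptor and cell cycle genes was not tested, nor was that of the share of mitochondrially encoded counts.

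The same treatment was then read without 27HC, from the 5 ICI and 6 Vehicle libraries, which share no library with the comparison above. ICI against Vehicle changed 3654 genes, 26.4% of those tested, with 1925 rising (13.9%) and 1729 falling (12.5%). Genes that rose both with and without 27HC numbered 974, which is 42% of those that rose with 27HC and 50.6% of those that rose without it. Genes that fell in both numbered 981, or 40.8% and 56.7%. In opposite directions, 87 rose with 27HC and fell without it (3.75% of the rises with 27HC and 5.03% of the falls without it), and 168 fell with 27HC and rose without it (6.99% and 8.73%).

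Whether the 2 differences were unlike was tested with the interaction term, the log2 fold change with 27HC minus that without. It passed for 2403 genes, 17.4% of those tested, 1023 of them positive (7.39%) and 1380 negative (9.97%). In the ATF4 list 18 of 26 members had a positive interaction and none a negative one. For Atf4 the log2 fold change was 1.43 with 27HC and 0.64 without it (interaction 0.79 ± 0.039, adjusted p = 1.70e-20), and for Slc7a11 it was 1.37 and -0.28 (interaction 1.65 ± 0.11, adjusted p = 3.44e-15). Gdf15 likewise had 2.24 and 0.62 (interaction 1.62 ± 0.069, adjusted p = 1.55e-22).

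Genes of cholesterol synthesis and uptake had mostly positive interactions. Without 27HC, 21 of its 25 members fell with ICI and none rose, a median of -0.76, and the interaction was positive for 18 and negative for none. Among the 6 most positive values of called genes averaging at least 1 CPM were those of Sqle (1.67 ± 0.075) and Idi1 (1.66 ± 0.082), and those of Slc7a11 and Gdf15 given above. Idi1, an enzyme of isoprenoid synthesis, averaged 9.59 ± 0.35 CPM with ICI + 27HC, 10.04 ± 0.56 CPM with 27HC, 16.98 ± 1.1 CPM with ICI and 56.3 ± 3.1 CPM with Vehicle. Its levels with ICI + 27HC and with 27HC lay close together, and the level with Vehicle was above the other 3. Insig1 and Hmgcs1, indicators of the same pathway, had interactions of 1.23 ± 0.052 and 1.06 ± 0.056.

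Negative interactions were more frequent than positive ones in several other lists. The LXR targets had 11 negative interactions and 1 positive among 21 tested members. For Abcg1 the log2 fold change with ICI was -0.052 with 27HC and 1.41 without it (interaction -1.46 ± 0.095, adjusted p = 5.50e-16). Lpl and Mylip also had negative interactions (-0.93 ± 0.067 and -0.73 ± 0.049), and that of Abca1 was -0.43 ± 0.090. Interactions were negative for 11 of 13 mitochondrially encoded transcripts and 16 of 28 interferon-stimulated genes, and positive for none. Without 27HC, 9 of these 13 transcripts rose with ICI and none fell, while 11 of the 28 genes rose and 2 fell. Complement and dying cell uptake genes had 10 of 13 negative and none positive. Endoplasmic reticulum chaperone genes had 13 of 21 negative and 3 positive. The most negative by the same rule were Phactr1 (-2.60 ± 0.74), Tns4, a focal adhesion protein (-1.95 ± 0.50), P2ry13 (-1.91 ± 0.15), Slco2b1 (-1.90 ± 0.27), P2ry12, another ADP receptor (-1.82 ± 0.19), and Cx3cr1 (-1.69 ± 0.11). Cx3cr1 averaged 9.02 ± 0.89 CPM with ICI + 27HC, 34.1 ± 2.98 CPM with 27HC, 49.6 ± 1.9 CPM with ICI and 58.3 ± 5.2 CPM with Vehicle. Its interaction was one of 11 negative and 2 positive ones among the 17 macrophage identity genes. Pcna, which rose with 27HC, rose more without it (log2 0.33 and 0.89; interaction -0.56 ± 0.055, adjusted p = 3.60e-11).

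**Figure D5:**
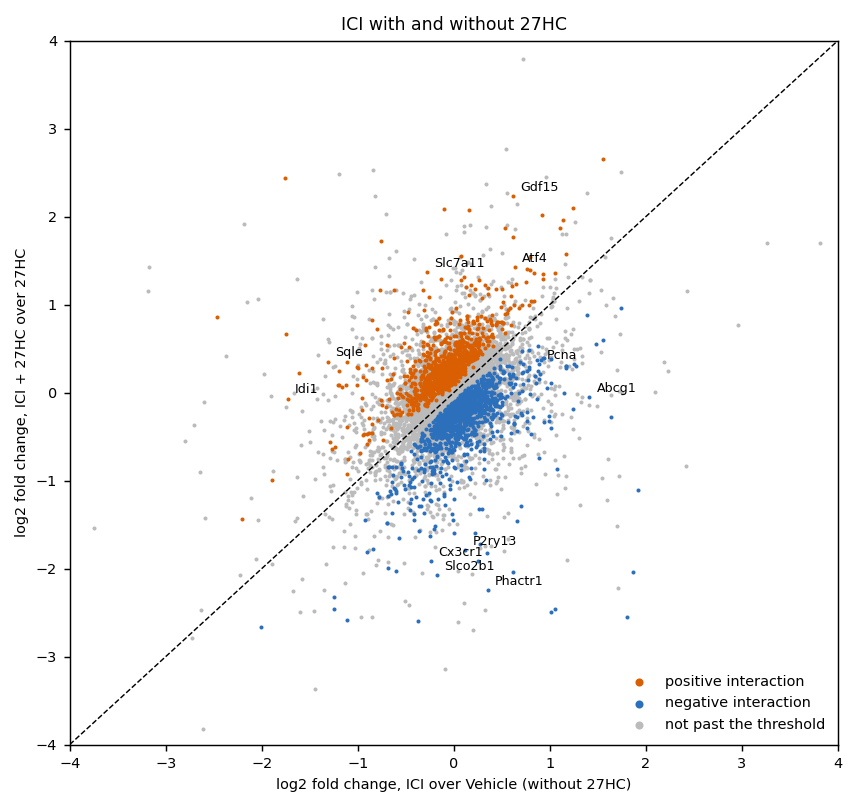
Each point is one of the 13838 genes tested, with the log2 fold change of ICI over Vehicle (no 27HC) on the x axis and of ICI + 27HC over 27HC on the y axis; the dashed line marks equal values and 20 genes lie outside the axes. Orange points had a positive interaction (1023 genes), blue points a negative one (1380 genes) and grey points none that passed. Sqle and Idi1 lie far above the line and Phactr1, Cx3cr1 and Abcg1 far below it.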

How the data were processed

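Per the labels, stranded TruSeq libraries of polyadenylated RNA from bone marrow-derived macrophages were sequenced as single reads of 100 nt, the 46 libraries pooled on 3 lanes. The submitters' processing notes name kallisto 0.44.0 and GRCm38, and the labels bcl2fastq 2.20. The deposited values are estimated counts per gene, made by the authors from kallisto output, and whether they were corrected for transcript length is not given in the sources used here. They were rounded, which changed no total by more than 133. GENCODE M21 gave symbols for 24243 of 24671 genes.

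Genes were kept with filterByExpr (13838). edgeR 4.0.16 fitted its robust quasi-likelihood model with TMM scaling to all 46 libraries, 1 mean per group, with 37 residual degrees of freedom, and contrasts were adjusted by Benjamini-Hochberg over all genes tested at 0.05. Standard errors of log2 fold changes and interactions were derived as the absolute value over the square root of the F statistic of that test. The biological coefficient of variation was 7.55%. Chi-square per degree of freedom between replicates of both groups ran from 3.91 to 12.2 over 20 pairs, so no library repeated another. Single values per library were compared by exact two-sided permutation tests. A group labelled with GW3965 and a second compound that its labels name differently entered the fit as a group of its own.

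Lists and genes were chosen with earlier results of these data known. Besides the receptors and sterol indicators, the genes named are up to 4 of smallest p per list, all called members of a direction with 5 or fewer, the 12 largest rises and 12 largest falls of genes that passed, averaged at least 1 CPM and did not overlap between groups, the 6 highest and 6 lowest interactions, and the 10 smallest p-values; others were added after their values were seen, and some genes that these rules name are not reported here. Motif matches used RefSeq promoters on GRCm38.p6, and the pattern of the antioxidant response element was set after another had been tried. Alternatives were RLE scaling, DESeq2 1.42.0, no filter, a stricter filter (1 CPM in at least 5 libraries), only the groups compared, the replicate number as a block, and each library left out.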

Additional observations from a re-analysis of the deposited data

Results flagged for a closer look

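The difference made by ICI was unlike with and without 27HC, by the interaction term, for 18 of the genes whose interaction is given above. The log2 interaction was positive for 7 of them: 1.67 for Sqle, 1.66 for Idi1, 1.65 for Slc7a11, 1.62 for Gdf15, 1.23 for Insig1, 1.06 for Hmgcs1 and 0.79 for Atf4. It was negative for 11: -2.60 for Phactr1, -1.95 for Tns4, -1.91 for P2ry13, -1.90 for Slco2b1, -1.82 for P2ry12, -1.69 for Cx3cr1, -1.46 for Abcg1, -0.93 for Lpl, -0.73 for Mylip, -0.56 for Pcna and -0.43 for Abca1. In edgeR's quasi-likelihood test each passed with an adjusted p under 0.05 over all genes tested, which was the rule for being listed here. Several had been picked as the highest or lowest interactions among genes that passed, so their passing is no test. Over all genes tested the interaction passed for 17.4%.

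One library stood apart from the rest of its group in 31 of the 512 sets of 5 or 6 libraries checked, by Dixon's criterion, which chance alone meets in about 1 in 20 sets. Replicate 3 of ICI + 27HC was the library apart in 9 of them and replicate 2 of 27HC in 6. Replicate 1 of ICI + 27HC was the highest of its group with 376 CPM for Atf3 (others 329.7 to 340.4). Replicate 2 of ICI + 27HC was the highest of its group with 15.9 CPM for Ddit4 (others 14.7 to 15.1). Replicate 3 of ICI + 27HC was the highest of its group with 871 CPM for C1qa (others 801 to 811), 616 CPM for Cd14 (others 578 to 587), 13111 CPM for Ctsd (others 12019.9 to 12215), 4816 CPM for Lgals3 (others 4366 to 4472), 56.4 CPM for Mcm3 (others 45.7 to 47.4), 122 CPM for Mt1 (others 111 to 113), 76.3 CPM for Nr1h2 (others 72.5 to 73.2) and 235 CPM for Psmb6 (others 211 to 216). Replicate 4 of ICI + 27HC was the highest of its group with 22.2 CPM for Socs3 (others 16.5 to 17.1). Replicate 5 of ICI + 27HC was the highest of its group with 169 CPM for Pdia4 (others 164 to 165). Replicate 1 of ICI + 27HC was the lowest of its group with 40.2 CPM for H2-Ab1 (others 42.7 to 43.5). Replicate 2 of ICI + 27HC was the lowest of its group with 34.2 CPM for Ebp (others 40.3 to 41.7). Replicate 3 of ICI + 27HC was the lowest of its group with 45.7 CPM for Nlrp3 (others 49.9 to 50.9). Replicate 5 of ICI + 27HC was the lowest of its group with 2986 CPM for Cd36 (others 3054 to 3078). Replicate 2 of 27HC was the highest of its group with 330.1 CPM for Hspa9 (others 319 to 322), 77.2 CPM for Nlrp3 (others 69.3 to 71.1), 27.5 CPM for Ptgs2 (others 21.9 to 23.4), 49.2 CPM for Slc7a11 (others 40.6 to 42.6) and 31.02 CPM for Socs3 (others 23.4 to 25.5). Replicate 3 of 27HC was the highest of its group with 193 CPM for Psmb6 (others 175 to 180.1) and 226 CPM for Sel1l (others 206 to 212). Replicate 5 of 27HC was the highest of its group with 21.8 CPM for Ddit4 (others 19.4 to 19.9), 1.34 CPM for Elovl7 (others 0.515 to 0.695), 57.6 CPM for Slc39a10 (others 53.5 to 54.05) and 65.5 CPM for Slc7a1 (others 58.3 to 59.5). Replicate 2 of 27HC was the lowest of its group with 221 CPM for Igfbp4 (others 246 to 251). Replicate 4 of 27HC was the lowest of its group with 9.44 CPM for H2-Eb1 (others 11.1 to 11.3). Replicate 5 of 27HC was the lowest of its group with 40.04 CPM for Tnf (others 44.6 to 45.8). Replicate 2 of ICI was the highest of its group with 409.5 CPM for Abca1 (others 368 to 377).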

How the results depend on the processing

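For ICI + 27HC against 27HC, 4722 genes passed in the main setting, and no gene that passed both there and in an alternative changed direction. The count was 4703 with RLE scaling, 4764 with DESeq2, 4226 with no filter, 4704 with a stricter filter and 4311 with only the groups compared, and it ran from 4315 to 4540 when each library was left out. Genes that rose numbered 2098 to 2219 and genes that fell 2217 to 2354 when each library was left out. The stricter filter lowered the share of rises among called genes to 45.7%, against 49.1% in the main setting. The interaction passed for 2403 genes in the main setting, and for 2019 to 2508 under the settings of scaling, test, filter and samples. It passed for 2192 to 2356 genes with each ICI + 27HC or 27HC library left out. The interaction was not refitted without single ICI or Vehicle libraries, so its dependence on them was not tested. ICI against Vehicle passed for 3654 genes in the main setting, for 3135 to 3716 under those settings, and for 3268 to 3540 with each ICI or Vehicle library left out. It is not known whether replicate numbers pair the samples. ICI + 27HC and 27HC libraries of the same number correlated in their deviations from the group means at -0.0108 to 0.0688. Of the ICI + 27HC libraries, 3 of 5 correlated best with their own number, and correlations with another number reached at most 0.0446. With the replicate block 4907 genes passed for ICI + 27HC against 27HC, 2570 for the interaction and 3629 for ICI against Vehicle. Of the named genes that passed for ICI + 27HC against 27HC, 14 lost their call in at least 1 of the 16 alternatives (14 for Gper1, which was not tested in the others), with the same direction in each: Acat2 in 1 (p up to 0.0554), Cdkn2c in 2 (p up to 0.0543), Elovl7 in 9 (p up to 0.0991), Fads2 in 8 (p up to 0.152), Gper1 in 8 (p up to 0.113), H2-DMb2 in 12 (p up to 0.143), Hmgcs1 in 1 (p up to 0.0510), Ier3 in 7 (p up to 0.0883), Ncoa2 in 7 (p up to 0.101), Ndufb8 in 4 (p up to 0.0986), Pdia3 in 6 (p up to 0.111), Ptgs2 in 9 (p up to 0.156), Rpl37 in 7 (p up to 0.126) and Sdhc in 4 (p up to 0.127), the p being adjusted. Tns4 did not pass in the main setting and passed in 6 alternatives. Some lists of few or lowly expressed members moved with the filter: with no filter the median of the metallothionein list was 0.026, that of the T cell-inhibiting myeloid genes -0.40 and that of the chemoattractant receptors -0.73, and the median of the receptors was -0.88 with the stricter filter. The causes of these shifts were not tested. Depth limits the low genes, such as Esr2, which was not tested, and Gper1, with at most 12 counts in a library.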

Other observations

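Receptor families outside the lists were looked up after their first members had been seen among the largest changes, so their values are a description and no test of the families. The C-type lectin receptors Clec4a1, Clec4a2 and Clec4a3 of myeloid cells, near-copies whose reads may be split between them, all fell (log2 -1.45, -1.14 and -1.14). Clec4a2 averaged 47.2 ± 1.2 CPM with ICI + 27HC against 104 ± 4.2 CPM with 27HC and Clec4a3 19.5 ± 0.70 CPM with ICI + 27HC against 43.1 ± 2.6 CPM with 27HC. Of the membrane proteins of the Ms4a family, Ms4a4a, Ms4a6b, Ms4a6c and Ms4a6d fell (log2 -2.58, -1.22, -0.90 and -0.38), while Ms4a7 was at log2 -0.017 ± 0.038 (adjusted p = 0.783).

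Receptors for nucleotides moved in both directions. The ADP receptors P2ry12 and P2ry13 fell (log2 -1.60 and -1.79), as did the UDP receptor P2ry6 (157 ± 6.4 CPM with ICI + 27HC against 223 ± 6.3 CPM with 27HC; log2 -0.50 ± 0.026, adjusted p = 5.93e-21) and the UDP-sugar receptor P2ry14 (log2 -0.78 ± 0.14, adjusted p = 8.06e-06). P2ry2, a receptor for ATP and UTP, and P2ry1, a further ADP receptor, rose (log2 0.61 ± 0.056, adjusted p = 2.21e-12, and log2 0.59 ± 0.14, adjusted p = 9.65e-04).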
